A study of Homo sapiens with 6 samples.

Results

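Heat shock proteins and chaperones help other proteins reach and keep their fold. The genes described here were taken by their symbols: the HSPA (HSP70), HSPB (small heat shock protein), HSP90, DNAJA, DNAJB, DNAJC (J-domain) and CCT (chaperonin subunit) families, with HSPD1, HSPE1, HSPH1, TCP1, the transcription factor HSF1 and the co-chaperone BAG3. The rule found 78 genes among the 17687 named genes measured, each on 1 of the 21448 transcript probe sets tested. HSPA1B, HSPA8, HSP90B1 and TCP1 had no named probe set and were not analysed here.

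The study measured gene expression on 6 arrays of A431, a human epidermoid carcinoma line which carries very many receptors for epidermal growth factor (EGFR). Cells of every group had been starved for 24 h. The EGF plus gefitinib group received 100 ng/ml EGF, the ligand of EGFR, and 10 µM gefitinib, which blocks the kinase of EGFR; the EGF group received the same dose of EGF alone; the control group received neither. Each group had 2 arrays, harvest was 30 min after treatment per the labels, and the labels do not give the order in which gefitinib and EGF were added. The titles number the arrays of a group as biological replicates without saying what was repeated, such as the culture or the treatment. A p-value here therefore reflects the spread between samples of a group, part of which may be technical. All groups are of 1 cell line.

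Chaperones of the HSP70 family bind exposed hydrophobic stretches of unfolded proteins; J-domain proteins bring them their clients and stimulate their ATPase, and nucleotide exchange factors such as the HSP110 proteins and BAG proteins let the client go. HSP90 matures kinases and steroid receptors, the ring-shaped chaperonin TRiC folds actin and tubulin, and small heat shock proteins hold unfolded proteins without ATP. The endoplasmic reticulum (ER) and the mitochondria have sets of their own, and HSF1 is the transcription factor that induces many of these genes when proteins unfold.

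Array medians over the tested probe sets were 6.07 to 6.16 on the log2 scale, and 38.4% to 42.1% of probe sets lay above the background limit, the level that 95% of negative-control probe sets did not exceed. Of 10 keratinocyte markers listed, 6 were measured and all 6 were above that limit on every array, summing to 85.8 to 86.4 with EGF plus gefitinib, 88.1 to 88.5 with EGF and 84.9 to 85.1 in control. The 6 fibroblast markers measured summed to 34.2 to 35.2 on the EGF plus gefitinib arrays, 33.7 to 34.0 on the EGF arrays and 37.4 to 37.5 on the control arrays (sums of log2 values); 4 of them, COL1A1 and PDGFRB among these, lay within the negative-control range on every array. Leukocyte markers summed to 34.0 to 34.8 with EGF plus gefitinib, 35.4 to 35.8 with EGF and 35.5 to 35.9 in control, with PTPRC and 4 others of 6 within that range on every array. The 5 endothelial markers summed to 23.0 with EGF plus gefitinib, 20.1 to 20.3 with EGF and 21.8 to 22.4 in control, and 4 of them, PECAM1 among these, lay within the range throughout. Of the keratinocyte markers measured, only SFN and DSG3 were called by limma. SFN was higher with EGF than in control (1.02 ± 0.17, adjusted p = 0.0118). It was lowest with EGF plus gefitinib (-2.09 ± 0.17 against EGF, adjusted p = 0.000612). DSG3 was higher than in control with EGF (1.21 ± 0.18, adjusted p = 0.00822) and with EGF plus gefitinib (1.41 ± 0.18, adjusted p = 0.0162). CD68, a leukocyte marker above the limit on every array, was not called. LUM, a fibroblast proteoglycan above the limit on every array, was lower with EGF than in control (-1.34 ± 0.26, adjusted p = 0.0194). CDH5, the endothelial cadherin, read 7.48 and 7.71 with EGF plus gefitinib, 4.84 and 5.21 with EGF, and 7.50 and 7.0 in control. It was above the limit on 2 of 6 arrays, and was lower with EGF than in control (adjusted p = 0.0027) and higher with EGF plus gefitinib than with EGF (adjusted p = 0.000901). The part of these markers in the results was not tested. DUSP6, a phosphatase induced by ERK signalling, read 11.23 and 10.90 with EGF plus gefitinib, 12.58 and 12.42 with EGF, and 8.36 and 8.56 in control. FOSL1, an AP-1 subunit, read 10.21 and 9.55 with EGF plus gefitinib, 13.88 and 13.87 with EGF, and 9.95 and 9.79 in control. EGR1, an immediate early transcription factor, was not called with EGF against control, at 11.80 and 11.77 with EGF and 11.70 and 11.67 in control (difference 0.10, adjusted p = 0.894), and read 10.23 and 9.10 with EGF plus gefitinib. FOS, another immediate early gene, lay within the negative-control range on all 6 arrays. EGFR read 15.26 and 15.36 with EGF plus gefitinib, 14.44 and 14.44 with EGF, and 14.42 and 14.38 in control.

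Promoters of 9 of the genes are printed here. HSPA1A, HSPH1, DNAJB11 and HSPB8 were chosen for their large changes, and the others from those carrying a motif of the heat shock or ER stress response. The promoters of HSP90AA1 and HSP90AB1, which also carry such a motif, are not printed. They are RefSeq sequences of GRCh38.p14, 300 bases each, from 250 bases before the start of the gene to 50 after it, 5′ to 3′ on the strand of the gene, and capitals mark motif matches. HSPA1A lies at chr6:31815293-31815592 (plus strand), HSPH1 at chr13:31162339-31162638 (minus strand), DNAJB11 at chr3:186570470-186570769 (plus strand) and HSPB8 at chr12:119178681-119178980 (plus strand). DNAJA1 lies at chr9:33025023-33025322 (plus strand), DNAJB6 at chr7:157336754-157337053 (plus strand), HSPD1 at chr2:197499791-197500090 (minus strand), HSPA6 at chr1:161524290-161524589 (plus strand) and HSPA5 at chr9:125241294-125241593 (minus strand).
HSPA1A: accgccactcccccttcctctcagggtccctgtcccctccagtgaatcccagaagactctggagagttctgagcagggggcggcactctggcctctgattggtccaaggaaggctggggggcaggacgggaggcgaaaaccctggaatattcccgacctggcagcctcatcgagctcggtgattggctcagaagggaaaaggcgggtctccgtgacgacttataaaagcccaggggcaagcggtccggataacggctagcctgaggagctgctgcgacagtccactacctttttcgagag
HSPH1: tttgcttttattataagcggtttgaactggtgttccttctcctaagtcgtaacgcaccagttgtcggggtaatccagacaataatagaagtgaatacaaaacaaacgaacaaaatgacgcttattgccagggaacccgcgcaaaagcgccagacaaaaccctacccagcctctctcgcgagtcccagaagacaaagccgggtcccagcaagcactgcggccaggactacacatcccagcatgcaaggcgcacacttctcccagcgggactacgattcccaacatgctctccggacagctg
DNAJB11: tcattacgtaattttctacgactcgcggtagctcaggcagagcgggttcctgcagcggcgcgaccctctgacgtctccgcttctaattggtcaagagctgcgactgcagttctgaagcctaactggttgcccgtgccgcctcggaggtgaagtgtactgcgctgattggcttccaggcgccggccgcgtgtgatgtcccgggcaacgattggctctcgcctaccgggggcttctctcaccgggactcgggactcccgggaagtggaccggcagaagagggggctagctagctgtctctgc
HSPB8: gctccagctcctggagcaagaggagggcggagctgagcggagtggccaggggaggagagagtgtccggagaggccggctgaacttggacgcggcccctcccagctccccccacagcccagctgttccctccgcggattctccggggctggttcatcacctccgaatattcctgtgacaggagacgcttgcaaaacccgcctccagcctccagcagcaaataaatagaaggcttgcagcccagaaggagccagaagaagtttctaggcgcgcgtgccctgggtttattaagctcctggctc
DNAJA1: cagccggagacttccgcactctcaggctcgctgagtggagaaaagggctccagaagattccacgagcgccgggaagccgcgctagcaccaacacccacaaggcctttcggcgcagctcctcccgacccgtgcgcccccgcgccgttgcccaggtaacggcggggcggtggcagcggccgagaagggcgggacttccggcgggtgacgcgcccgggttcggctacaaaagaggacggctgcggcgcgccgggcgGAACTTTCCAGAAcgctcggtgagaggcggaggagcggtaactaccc
DNAJB6: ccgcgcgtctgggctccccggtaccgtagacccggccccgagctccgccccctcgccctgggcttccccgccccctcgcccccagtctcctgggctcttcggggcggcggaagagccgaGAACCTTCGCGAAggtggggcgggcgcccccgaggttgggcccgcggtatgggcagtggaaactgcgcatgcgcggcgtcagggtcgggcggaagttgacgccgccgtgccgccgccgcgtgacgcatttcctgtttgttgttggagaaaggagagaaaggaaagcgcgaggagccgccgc
HSPD1: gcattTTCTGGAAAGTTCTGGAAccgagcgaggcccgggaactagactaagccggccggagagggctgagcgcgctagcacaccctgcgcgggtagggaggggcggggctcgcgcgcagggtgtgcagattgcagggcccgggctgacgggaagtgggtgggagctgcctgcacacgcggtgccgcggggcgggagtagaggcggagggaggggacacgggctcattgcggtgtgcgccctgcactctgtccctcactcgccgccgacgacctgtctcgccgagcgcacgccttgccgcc
HSPA6: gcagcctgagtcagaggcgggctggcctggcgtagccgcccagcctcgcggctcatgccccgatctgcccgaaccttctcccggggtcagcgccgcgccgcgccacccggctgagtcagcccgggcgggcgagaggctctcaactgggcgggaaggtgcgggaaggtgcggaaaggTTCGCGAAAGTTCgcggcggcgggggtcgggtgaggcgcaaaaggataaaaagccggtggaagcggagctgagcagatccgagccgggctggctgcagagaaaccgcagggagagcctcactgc
HSPA5: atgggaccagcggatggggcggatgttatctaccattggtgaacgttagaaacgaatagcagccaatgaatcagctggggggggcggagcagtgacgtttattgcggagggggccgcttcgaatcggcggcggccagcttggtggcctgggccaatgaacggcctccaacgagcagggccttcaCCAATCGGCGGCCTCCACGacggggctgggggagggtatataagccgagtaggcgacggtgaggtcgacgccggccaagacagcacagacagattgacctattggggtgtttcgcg

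The heat shock element, the site known to bind HSF1, was searched as GAANNTTCNNGAA on both strands, and the ER stress element as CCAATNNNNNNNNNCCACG on both strands. Of the 78 genes, 70 had a promoter in the RefSeq table. Among these 70, 6 (8.57%) held a heat shock element, against 166 of 27305 genes in the whole table (0.608%) and 172 of 35116 promoter windows (0.49%). The 6 were HSPA6 (-74 to -62), HSP90AA1 (-88 to -76), HSP90AB1 (-165 to -153 and -112 to -100), DNAJB6 (-131 to -119), DNAJA1 (4 to 16) and HSPD1, where matches at -245 to -233 and -240 to -228 overlap; positions count from the start of the gene. HSPA5 held the ER stress element at -66 to -48, 1 of 70 member genes (1.43%), against 25 of 27305 genes (0.0916%). HSPA1A, HSPH1, DNAJB11 and HSPB8 held neither spelling in these windows, and a match is a description of letters, not of a bound site. HSPD1 had 2 windows in the RefSeq table, and its positions count from the start in the printed one, which holds the matches. An HSPD1 window overlaps that of HSPE1 head to head, and another lies 38 bases from it. The windows of HSPA1A and HSPA1L overlap head to head.

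**Figure D1:**
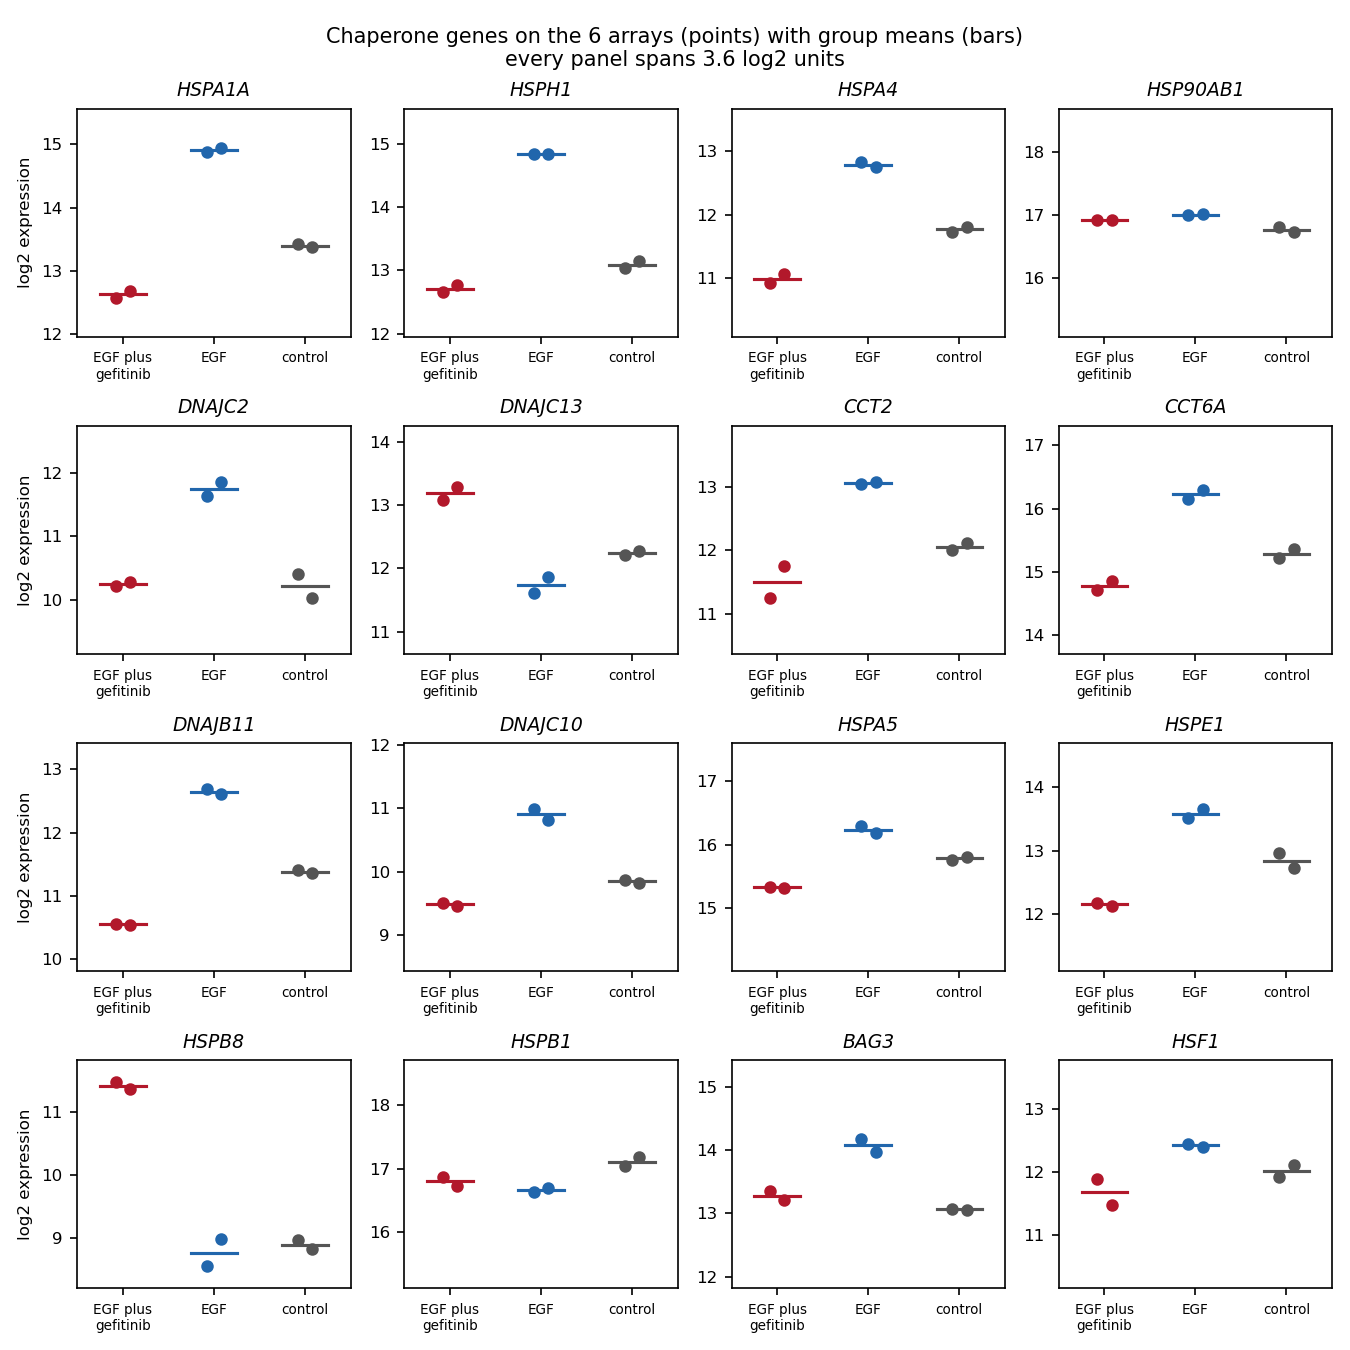
log2 expression (y axis) of 16 chaperone genes in EGF plus gefitinib, EGF and control cells (x axis), with 1 point per array and a bar at the mean of the 2 arrays of a group; every panel covers the same span of log2 units around its own centre. HSPA1A, HSPH1 and DNAJB11 are high on both EGF arrays (14.88 and 14.94 for HSPA1A), HSPB8 is high on both EGF plus gefitinib arrays (11.47 and 11.35), and HSP90AB1 stays between 16.74 and 17.02.

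The first comparison asked which chaperone genes differed between EGF-treated and untreated cells. With EGF, 19 of the 78 members rose and 2 fell, at a Benjamini-Hochberg adjusted p under 0.05 in limma over all 21448 probe sets. The members that rose were 24.4% of the 78, where 6.61% of all probe sets rose, and those that fell were 2.56%, where 5.3% of all probe sets fell. Brightness differs between these sets: of the 52 members with a mean above the background limit, 19 rose (36.5%) and 1 fell (1.92%), beside 12.9% and 9.58% of all probe sets that bright. The median log2 change over the 78 members was 0.38, and over all probe sets -0.03. In this and the other comparisons of whole cultures, fewer cells of a kind and less RNA per cell cannot be told apart.

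Among cytosolic HSP70 and HSP110 proteins, 5 of 10 rose with EGF (median change 0.72). HSPA1A, the stress-inducible HSP70, read 14.88 and 14.94 with EGF and 13.42 and 13.38 in control. HSPH1, an HSP110 protein that exchanges nucleotide on HSP70, read 14.85 and 14.84 with EGF and 13.03 and 13.15 in control. Both EGF arrays were above both control arrays for each gene, and the rises were 2.84-fold for HSPA1A (log2 change 1.51 ± 0.17, SE, adjusted p = 0.00302) and 3.37-fold for HSPH1 (1.75 ± 0.17, adjusted p = 0.00181). HSPA1B is a near-identical copy of HSPA1A, so the HSPA1A value may hold signal of both. HSPA4, another HSP110-type exchange factor, rose by 1.02 ± 0.17 (adjusted p = 0.0121), and HSPA4L, its paralog, by 1.10 ± 0.28 (adjusted p = 0.0456). HSPA2, an HSP70 best known from the testis, had 12.00 and 11.85 with EGF and 12.23 and 11.88 in control, so its groups overlapped.

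HSPA14 and DNAJC2 form the ribosome-associated pair that receives new chains as they leave the ribosome, and both rose. HSPA14 read 10.81 and 10.67 with EGF and 9.72 and 9.76 in control (1.0 ± 0.17, adjusted p = 0.0127). DNAJC2 read 11.64 and 11.86 with EGF and 10.41 and 10.03 in control, a 2.89-fold rise (1.53 ± 0.20, adjusted p = 0.00512). Of the 24 cytosolic and nuclear J-domain genes, 4 rose, at a median change of 0.29 over the class. DNAJB6, which suppresses the aggregation of polyglutamine proteins, rose by 1.07 ± 0.17 (adjusted p = 0.0109) and DNAJA4 by 0.85 ± 0.20 (adjusted p = 0.0375). DNAJA1, a general partner of HSP70, read 14.85 and 14.88 with EGF and 14.19 and 14.05 in control (0.75 ± 0.17, adjusted p = 0.0322). DNAJB1, the classic stress-inducible J-domain partner of HSP70, was not called: it read 12.06 and 11.80 with EGF and 11.64 and 11.35 in control, a difference of 0.44 with a 95% interval of -0.02 to 0.90.

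Neither HSP90 gene was called. HSP90AA1, the inducible form, read 14.70 and 14.90 with EGF and 14.46 and 14.34 in control (difference 0.39, 95% interval -0.02 to 0.81, adjusted p = 0.212). HSP90AB1, the constitutive form, read 17.00 and 17.02 with EGF and 16.80 and 16.74 in control (difference 0.24, interval -0.15 to 0.63, adjusted p = 0.433). The EGF arrays were the higher for both genes, but by amounts the intervals do not separate from 0. Of the 9 chaperonin genes 3 rose, all TRiC subunits: CCT2 (1.01 ± 0.21, adjusted p = 0.0258), CCT6A (0.94 ± 0.18, adjusted p = 0.0175) and CCT5 (0.78 ± 0.18, adjusted p = 0.032). CCT3, CCT4, CCT7 and CCT8 had differences of 0.50, 0.40, 0.21 and 0.48 that did not pass.

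In the ER, 4 of 12 genes rose (median change 0.48). DNAJB11, a J-domain partner of the ER HSP70 HSPA5 (BiP), read 12.68 and 12.60 with EGF and 11.42 and 11.36 in control, a 2.39-fold rise (1.26 ± 0.17, adjusted p = 0.00528). DNAJC10, a disulfide reductase with a J domain, rose by 1.06 ± 0.17 (adjusted p = 0.0106), HSPA13, an HSP70 relative found in microsomes, by 1.03 ± 0.20 (adjusted p = 0.0211), and DNAJC3, a BiP co-chaperone, by 0.91 ± 0.19 (adjusted p = 0.0248). HSPA5 itself was not called, at 16.29 and 16.18 with EGF and 15.76 and 15.81 in control (difference 0.45, 95% interval 0.05 to 0.85, adjusted p = 0.141). In the mitochondria 2 of 9 genes rose, the chaperonin HSPD1 and its lid HSPE1. HSPE1 read 13.51 and 13.67 with EGF and 12.96 and 12.73 in control (0.74 ± 0.18, adjusted p = 0.0409), and HSPD1 read 15.01 and 15.04 with EGF and 14.34 and 14.34 in control (0.69 ± 0.17, adjusted p = 0.0397). HSPA9, the mitochondrial HSP70, differed by 0.26 (interval -0.14 to 0.65).

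No small heat shock protein of 6 was called by limma, and at an unadjusted p under 0.05 there were 0 higher and 1 lower. That one was HSPB1, an abundant small heat shock protein, at 16.64 and 16.70 with EGF and 17.04 and 17.18 in control (difference -0.44, adjusted p = 0.159). HSPB8, a small heat shock protein that works with BAG3, read 8.56 and 8.99 with EGF and 8.98 and 8.83 in control, overlapping groups. BAG3, the co-chaperone that links HSP70 and HSPB8 to autophagy, rose 2.01-fold, with 14.17 and 13.97 with EGF and 13.06 and 13.06 in control (1.01 ± 0.18, adjusted p = 0.0139). HSF1 read 12.44 and 12.40 with EGF and 11.92 and 12.10 in control (difference 0.41, adjusted p = 0.258). The 2 genes that fell were DNAJC4, a J-domain gene, and DNAJC22. DNAJC4 read 9.46 and 9.11 with EGF and 10.53 and 10.68 in control (-1.32 ± 0.20, adjusted p = 0.0077, 2.49-fold lower). The DNAJC22 arrays all lay within the negative-control range (adjusted p = 0.045), so no fold is given. With any 1 of the control or EGF arrays left out, 4 of the 19 rises passed in each case, when 1.8% to 2.18% of all probe sets were called higher. DNAJB11, DNAJC2, HSPA1A and HSPH1 were called under every one of the 13 alternatives tried, some of which are the same fit for this comparison.

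**Figure D2:**
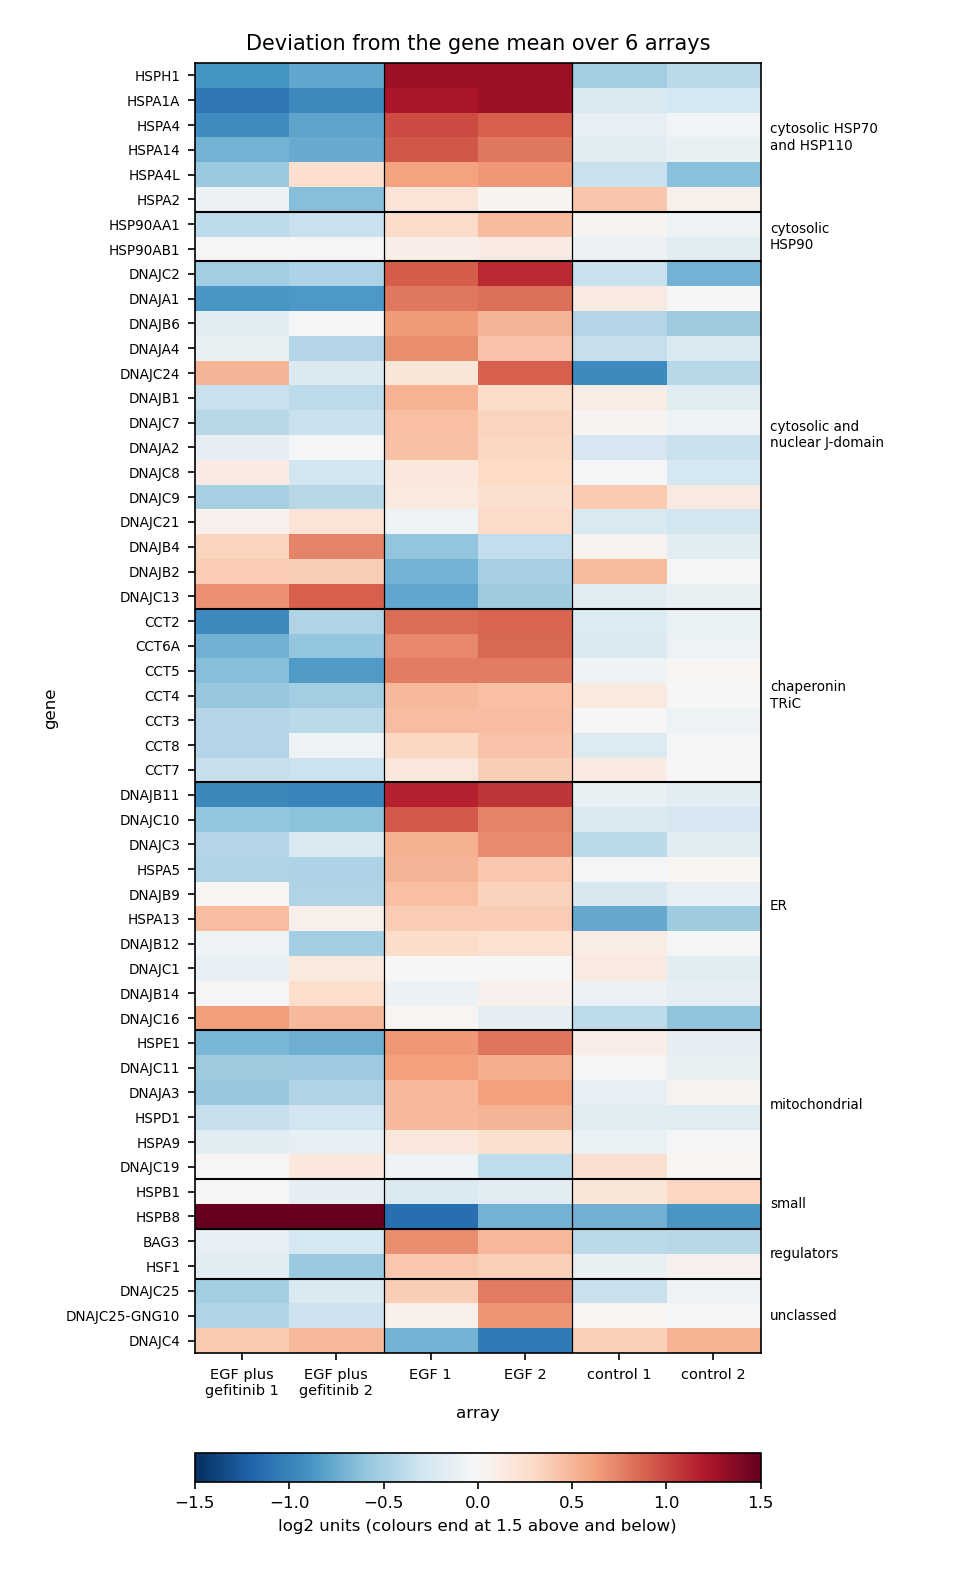
Deviation of each array (columns) from the gene's mean over the 6 arrays, in log2 units, for the 52 chaperone genes (rows) with a mean above the background limit, grouped by class and ordered within a class by the mean of the EGF arrays; red is above and blue below the mean, and colours end at 1.5. Most rows are red on both EGF arrays and blue on the EGF plus gefitinib arrays, while HSPB8, DNAJC13 and DNAJC4 are red on the EGF plus gefitinib arrays.

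A second comparison addressed the effect of gefitinib on cells given EGF. Relative to EGF alone, 28 of 78 members fell and 6 rose with EGF plus gefitinib (limma, adjusted p under 0.05). The falls were 35.9% of members, where 9.81% of all probe sets fell, and the rises were 7.69%, where 8.86% of all probe sets rose. Of the 52 bright members 28 fell (53.8%) and 5 rose (9.62%), beside 19.5% and 15.3% of all bright probe sets. The median change was -0.42 over the members and 0.05 over all probe sets. This comparison shares the EGF arrays with the first, so a gene high on those arrays counts in both.

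HSPA1A read 12.58 and 12.69 with EGF plus gefitinib and 14.88 and 14.94 with EGF, a 4.84-fold fall (-2.27 ± 0.17, adjusted p = 0.000474). HSPH1 read 12.66 and 12.77 with EGF plus gefitinib and 14.85 and 14.84 with EGF, a 4.38-fold fall (-2.13 ± 0.17, adjusted p = 0.00059). The arrays of the groups were far apart for both genes. HSPA4 read 10.92 and 11.06 with EGF plus gefitinib and 12.83 and 12.75 with EGF (-1.8 ± 0.17, adjusted p = 0.00097), and HSPA14 read 9.17 and 9.12 with EGF plus gefitinib and 10.81 and 10.67 with EGF (-1.59 ± 0.17, adjusted p = 0.00136). In all, 4 of 10 cytosolic HSP70 and HSP110 genes fell, with a class median of -0.77. HSPA4L read 9.47 and 10.27 with EGF plus gefitinib and 10.63 and 10.67 with EGF, and was not called (-0.78 ± 0.28, adjusted p = 0.1). HSPA6, an HSP70 made under severe stress, lay within the negative-control range on all 6 arrays.

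Of the HSP90 genes, HSP90AA1 fell to 14.02 and 14.08 with EGF plus gefitinib, against 14.70 and 14.90 with EGF (-0.75 ± 0.18, adjusted p = 0.0264). HSP90AB1 read 16.92 and 16.91 with EGF plus gefitinib and 17.00 and 17.02 with EGF (difference -0.09, 95% interval -0.48 to 0.30, adjusted p = 0.763). TRiC subunits fell in 5 of 9 chaperonin genes, at a class median of -0.89. CCT2 read 11.25 and 11.75 with EGF plus gefitinib and 13.04 and 13.08 with EGF, a 2.94-fold fall (-1.56 ± 0.21, adjusted p = 0.00337). CCT5 fell by 1.51 ± 0.18 (adjusted p = 0.00192), CCT6A by 1.45 ± 0.18 (adjusted p = 0.00221), CCT4 by 1.01 ± 0.17 (adjusted p = 0.00749) and CCT3 by 0.89 ± 0.17 (adjusted p = 0.011). CCT7 and CCT8 had differences of -0.60 and -0.63 with adjusted p = 0.0557 and 0.0721, and CCT6B and CCT8L2 lay within the negative-control range on every array. As deviations from each gene's mean over the arrays, the class median of the chaperonin genes was -0.44 and -0.41 on the EGF plus gefitinib arrays, 0.47 and 0.46 on the EGF arrays, and -0.15 and -0.02 on the control arrays.

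Cytosolic and nuclear J-domain genes went in both directions: 7 of 24 fell and 4 rose. DNAJA1 read 13.18 and 13.20 with EGF plus gefitinib and 14.85 and 14.88 with EGF, a 3.2-fold fall (-1.68 ± 0.17, adjusted p = 0.00116). DNAJC2 read 10.22 and 10.27 with EGF plus gefitinib and 11.64 and 11.86 with EGF (-1.5 ± 0.20, adjusted p = 0.00308). DNAJB1 fell to 11.20 and 11.14 with EGF plus gefitinib, against 12.06 and 11.80 with EGF (-0.76 ± 0.20, adjusted p = 0.0357). DNAJA4, DNAJB6, DNAJC7 and DNAJC9 also fell, by 0.84, 0.66, 0.77 and 0.65; DNAJC7 and DNAJC9 were named after their values were seen. Among the rises, DNAJC13, which acts in endosomal sorting, read 13.07 and 13.29 with EGF plus gefitinib and 11.61 and 11.86 with EGF, a 2.73-fold rise (1.45 ± 0.19, adjusted p = 0.00272). DNAJB4, an HSP70 partner, rose by 1.02 ± 0.21 (adjusted p = 0.0171). DNAJB2, which delivers clients to the proteasome, rose at least 1.56-fold (adjusted p = 0.0216), its EGF arrays being within the negative-control range. DNAJC6, the clathrin-uncoating protein auxilin, was called higher (adjusted p = 0.0388) with every array within that range, so no fold is given.

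ER genes fell in 4 of 12, and the mitochondrial genes in 4 of 9. DNAJB11 read 10.56 and 10.54 with EGF plus gefitinib and 12.68 and 12.60 with EGF, a 4.26-fold fall (-2.09 ± 0.17, adjusted p = 0.000588). DNAJC10 fell by 1.43 ± 0.17 (adjusted p = 0.00207), DNAJC3 by 0.95 ± 0.19 (adjusted p = 0.0141), and HSPA5 read 15.33 and 15.32 with EGF plus gefitinib and 16.29 and 16.18 with EGF (-0.91 ± 0.17, adjusted p = 0.0104). DNAJB9, a BiP co-chaperone induced when ER proteins unfold, read 9.01 and 8.54 with EGF plus gefitinib, 9.44 and 9.33 with EGF, and 8.74 and 8.87 in control, and passed in neither comparison. HSPA13 was not called against EGF, at 9.13 and 8.74 with EGF plus gefitinib and 9.04 and 9.05 with EGF (difference -0.11, 95% interval -0.59 to 0.37). HSPE1 read 12.18 and 12.13 with EGF plus gefitinib and 13.51 and 13.67 with EGF, a 2.7-fold fall (-1.43 ± 0.18, adjusted p = 0.00255). HSPD1 fell by 0.82 ± 0.17 (adjusted p = 0.015), DNAJC11, a J-domain protein associated with the inner-membrane organising complex, by 1.12 ± 0.17 (adjusted p = 0.00494), and DNAJA3, a matrix J-domain protein, by 1.06 ± 0.18 (adjusted p = 0.00716). HSPA9 differed by -0.34 (interval -0.74 to 0.05), without passing.

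HSPB8 rose with EGF plus gefitinib. It read 11.47 and 11.35 with EGF plus gefitinib, 8.56 and 8.99 with EGF, and 8.98 and 8.83 in control. Both EGF plus gefitinib arrays lay above all others, and the rise over EGF was 6.21-fold (2.63 ± 0.21, adjusted p = 0.000566). HSPB1 read 16.88 and 16.73 with EGF plus gefitinib and 16.64 and 16.70 with EGF, and did not pass (0.13, adjusted p = 0.663), while HSPB3, HSPB6, HSPB7 and HSPB9 lay within the negative-control range on every array. Both regulators fell. BAG3, the partner of HSPB8, read 13.35 and 13.21 with EGF plus gefitinib and 14.17 and 13.97 with EGF (-0.79 ± 0.18, adjusted p = 0.0214), and HSF1 read 11.88 and 11.48 with EGF plus gefitinib and 12.44 and 12.40 with EGF (-0.74 ± 0.20, adjusted p = 0.0432). DNAJC4 read 10.56 and 10.66 with EGF plus gefitinib and 9.46 and 9.11 with EGF, a 2.51-fold rise (1.33 ± 0.20, adjusted p = 0.00446). DNAJC25 fell by 0.94 ± 0.22 (adjusted p = 0.027); it shares its promoter window with the read-through gene DNAJC25-GNG10, so the split between them is uncertain. Leaving out 1 EGF or EGF plus gefitinib array lowered the number of falls and of rises, among members and among all probe sets. The HSF1 call ended in 8 of 13 alternatives, some of which are the same fit for this comparison. The falls of 13 genes, HSPA1A, HSPH1, DNAJB11 and DNAJA1 among them, and the rises of HSPB8, DNAJC13 and DNAJC4 were called in all 13.

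**Figure D3:**
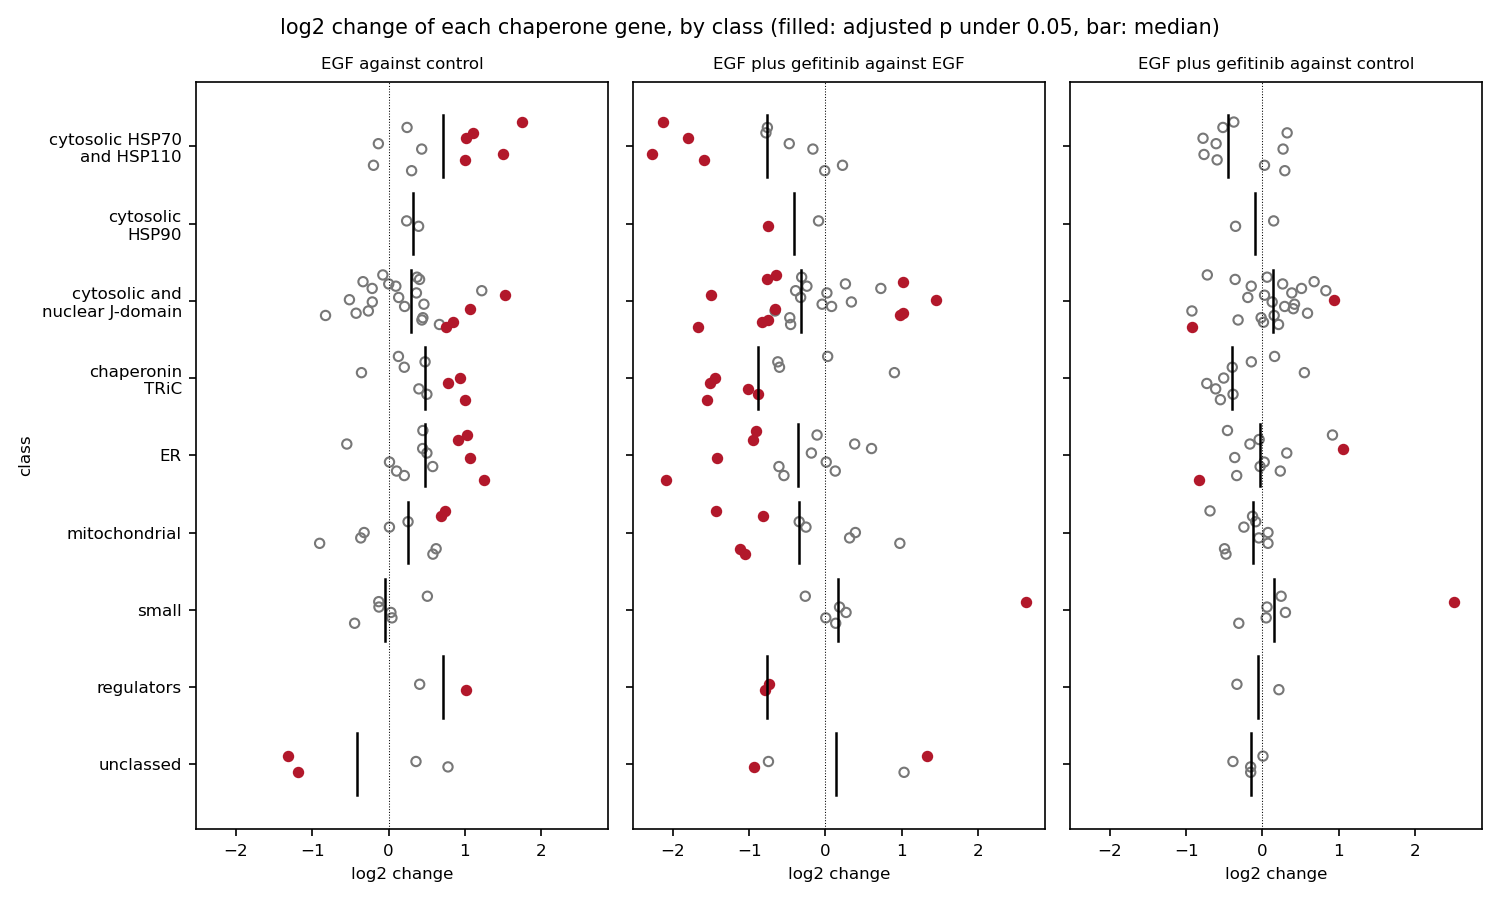
log2 change (x axis) of each of the 78 chaperone genes by class (y axis), with 1 panel per comparison; a point is a gene, filled where the limma adjusted p was under 0.05, and the bar is the median of the class. The chaperonin genes have a median of 0.48 with EGF against control, -0.89 with EGF plus gefitinib against EGF, and -0.40 with EGF plus gefitinib against control.

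The third comparison set EGF plus gefitinib against control. It called 3 members higher and 2 lower (limma, adjusted p under 0.05), or 3.85% and 2.56% of 78, beside 2.19% and 1.7% of all probe sets; among bright members the shares were 5.77% and 3.85%, beside 4.01% and 3.16%. These shares are near those of all probe sets. The median change was -0.04 over the members and 0.01 over all probe sets. At an unadjusted p under 0.05 there were 7 higher and 16 lower of 78 members, beside 2298 and 2159 of all 21448 probe sets. Among bright members there were 6 higher and 15 lower of 52, beside 1366 and 1463 of 8646. The unadjusted share lower was thus larger among the members than among all probe sets.

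HSPB8 rose 5.68-fold over control (2.51 ± 0.21, adjusted p = 0.0069), and this call ended without control 1, control 2 or EGF plus gefitinib 2. Over the fits without 1 array its change ran from 2.43 to 2.58. DNAJC13 read 13.07 and 13.29 with EGF plus gefitinib and 12.21 and 12.28 in control (0.94 ± 0.19, adjusted p = 0.0438). DNAJC16, a J-domain protein of the ER membrane, read 10.95 and 10.81 with EGF plus gefitinib and 9.93 and 9.72 in control, a 2.07-fold rise (1.05 ± 0.18, adjusted p = 0.0319). DNAJA1 fell to 13.18 and 13.20 with EGF plus gefitinib, against 14.19 and 14.05 in control (-0.93 ± 0.17, adjusted p = 0.0362). DNAJB11 read 10.56 and 10.54 with EGF plus gefitinib and 11.42 and 11.36 in control (-0.83 ± 0.17, adjusted p = 0.0443). The calls of these 4 genes ended when any 1 array was left out, in fits where few of all probe sets passed. Over those fits the change ran from 0.83 to 1.04 for DNAJC13 and from 0.95 to 1.15 for DNAJC16. It ran from -0.999 to -0.858 for DNAJA1 and from -0.86 to -0.80 for DNAJB11.

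Other genes high with EGF lay on either side of control when gefitinib was present, with none of these differences passing. HSPA1A read 12.58 and 12.69 with EGF plus gefitinib and 13.42 and 13.38 in control (-0.77, 95% interval -1.16 to -0.37, adjusted p = 0.0559). HSPA4 differed by -0.78 (adjusted p = 0.0562), CCT5 by -0.73 (adjusted p = 0.0709) and HSPE1 by -0.69 (adjusted p = 0.0866). DNAJC2 differed by 0.03 (interval -0.45 to 0.50), and HSPA13 by 0.92 (adjusted p = 0.0576), at 9.13 and 8.74 with EGF plus gefitinib and 7.90 and 8.14 in control.

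By compartment, the genes that rose with EGF against control were 26.7% of 45 cytosolic, 33.3% of 12 ER and 22.2% of 9 mitochondrial genes, where 6.61% of all probe sets rose. Those that fell with EGF plus gefitinib against EGF were 37.8% of the cytosolic, 33.3% of the ER and 44.4% of the mitochondrial genes, where 9.81% of all probe sets fell. In the same comparison 4 cytosolic genes (8.89%) rose, near the 8.86% of all probe sets that rose. The median changes of the cytosolic genes were 0.39 with EGF against control and -0.47 with EGF plus gefitinib against EGF. In those comparisons the ER genes had medians of 0.48 and -0.36, the mitochondrial genes 0.26 and -0.34, and the 6 small heat shock proteins -0.05 and 0.16. Within the negative-control range throughout lay 15 of 45 cytosolic, 2 of 12 ER, 3 of 9 mitochondrial and 4 of 6 small genes. The shares by compartment are therefore not at equal brightness. Of all probe sets with a mean above the background limit, 12.9% rose with EGF. With EGF plus gefitinib against EGF, 19.5% of these fell. No test of a difference between compartments was made. Of the 78 genes, 25 lay within the negative-control range on all 6 arrays, and DNAJB2, DNAJC24 and DNAJC27 on some of them.

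**Figure D4:**
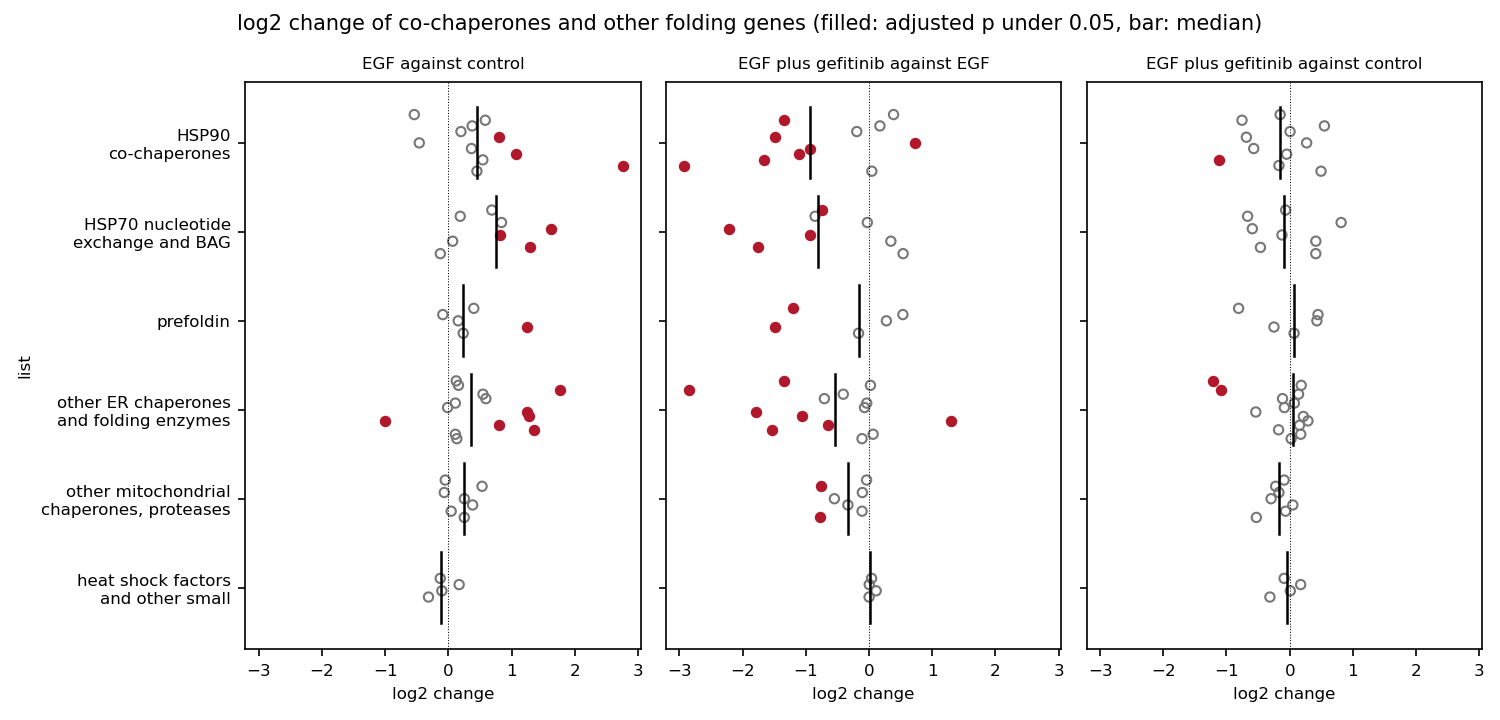
log2 change (x axis) of 49 co-chaperone and other folding genes by list (y axis), with 1 panel per comparison; a point is a gene, filled where the limma adjusted p was under 0.05, and the bar is the median of the list. CHORDC1 is the rightmost HSP90 co-chaperone with EGF against control (2.76) and the leftmost with EGF plus gefitinib against EGF (-2.93).

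Partner genes of these chaperones were listed by function, and of 56 listed 49 were measured. Of these, 12 rose and 1 fell with EGF against control, and 2 rose and 20 fell with EGF plus gefitinib against EGF. With EGF these were 24.5% and 2.04% of the 49, where 6.61% of all probe sets rose and 5.3% fell. With EGF plus gefitinib against EGF they were 4.08% and 40.8%, where 8.86% of all probe sets rose and 9.81% fell. A mean above the background limit was found for 44 of the 49, and of all probe sets that bright 12.9% rose and 9.58% fell with EGF, and 15.3% rose and 19.5% fell with EGF plus gefitinib against EGF. CHORDC1, an HSP90 co-chaperone, read 10.12 and 10.52 with EGF plus gefitinib, 13.33 and 13.16 with EGF, and 10.73 and 10.25 in control. The EGF arrays stood above all others, at a 6.77-fold rise over control (2.76 ± 0.24, adjusted p = 0.00128) and a 7.61-fold fall with EGF plus gefitinib against EGF (-2.93 ± 0.24, adjusted p = 0.000597). Of the 11 HSP90 co-chaperones measured, 3 rose with EGF and 6 fell with EGF plus gefitinib against EGF; STIP1, which passes clients from HSP70 to HSP90, was among both (0.80 ± 0.17, adjusted p = 0.0268, and -1.49 ± 0.17, adjusted p = 0.00187). ST13, an HSP70-interacting protein, was the 1 of these 11 that rose with EGF plus gefitinib against EGF (0.73 ± 0.18, adjusted p = 0.0337). Of 8 HSP70 exchange factors and BAG genes, 3 rose with EGF and 4 fell with EGF plus gefitinib. GRPEL1, the mitochondrial exchange factor, read 10.63 and 10.33 with EGF plus gefitinib, 12.60 and 12.80 with EGF, and 11.06 and 11.08 in control.

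Among 14 other ER chaperones and folding enzymes, 5 rose and 1 fell with EGF, and 1 rose and 6 fell with EGF plus gefitinib against EGF. SDF2L1, a partner of DNAJB11 in the ER, read 6.08 and 6.14 with EGF plus gefitinib, 8.88 and 9.04 with EGF, and 7.19 and 7.20 in control. It rose with EGF against control, where 1 of the 2 control arrays was above the background limit (1.77 ± 0.17, adjusted p = 0.00179), and fell at least 2.81-fold with EGF plus gefitinib, whose arrays lay within the negative-control range (adjusted p = 0.000258). HYOU1, an ER HSP110 relative, rose by 1.28 ± 0.17 with EGF (adjusted p = 0.00552) and MANF, a BiP cofactor, by 1.24 ± 0.21 (adjusted p = 0.0115). HERPUD1, an ER-associated degradation protein, went the other way: it read 13.90 and 13.57 with EGF plus gefitinib, 12.54 and 12.35 with EGF, and 13.40 and 13.50 in control. It fell with EGF against control (-1.0 ± 0.20, adjusted p = 0.0196) and rose with EGF plus gefitinib against EGF (1.29 ± 0.20, adjusted p = 0.00495). Of 5 prefoldin genes, PFDN2, a subunit that passes clients to TRiC, rose with EGF by 1.24 ± 0.20 (adjusted p = 0.0114). Of 7 other mitochondrial chaperones and proteases, 0 were called with EGF by limma (1 at an unadjusted p under 0.05), and TRAP1, the mitochondrial HSP90, and CLPP, a protease subunit, fell with EGF plus gefitinib (-0.76 and -0.78).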

How the data were processed

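Gene expression of 6 A431 samples was measured on 1 array each. The authors deposited log2 values per probe set, for which the submitters' processing notes name Transcriptome Analysis Console. Not given in the sources used here are its version, background correction, summarization and normalization. That the values are log2 was judged from their range, and they were not transformed further. The table held 24351 probe sets; the 2903 controls were dropped and 21448 were tested without a filter; 17709 had 1 gene symbol in the platform annotation and 3739 are unnamed here. For the 20 genes with more than 1 probe set the brightest stood for the gene.

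The background limit was set for each array at the 95th percentile of its negative controls (7.14 to 7.65). A group with both arrays at or below it has only an upper bound, its fold is written "at least", and no fold is given where both groups lie there. The number of arrays limits the precision.

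All 6 arrays entered 1 limma 3.58.1 fit (lmFit and eBayes, R 4.3.3) with 3 group means (3 residual degrees of freedom, 4.22 prior). Two-sided p-values were Benjamini-Hochberg adjusted across all 21448 probe sets and called at 0.05; changes are log2 differences ± the standard error of the fit, with n = 2 arrays per group, and intervals are at 95%. The fit was tried on simulated data with independent noise and changes in the EGF group only, which cannot show the error rate on these arrays. Named were called members whose arrays did not overlap between groups, up to 15 of the largest rises and falls per comparison, the extremes of each class, well-known chaperones, and up to 3 called partner genes per list. The class extremes DNAJC15, DNAJC18 and DNAJC28 lay within the negative-control range on every array and are not described. Others were named to account for a class. Members, lists and rules were chosen with earlier results of these data known. Promoters were matched by symbol to RefSeq windows of GRCh38.p14. Alternatives were quantile normalization, median centring, a filter on dim probe sets, a trended robust eBayes, the 4 arrays of a comparison alone, the mean of a gene's probe sets, the replicate number as a block, and leaving out each array. Without an array of the group outside a comparison, the fit of that comparison equals that of its 4 arrays alone. Each member gene had 1 probe set, so the mean of a gene's probe sets left its values unchanged. The alternatives are therefore not all separate checks.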

Additional observations from a re-analysis of the deposited data

How the results depend on the processing

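With EGF against control, 19 rose; a filter on dim probe sets, which tests fewer probe sets, gave 31 and a trended robust eBayes 32, and leaving out 1 array gave 4 to 18. Among all probe sets tested, 6.61% rose with all arrays, 24.5% with the filter and 10.6% with the trended robust eBayes. The larger member counts thus came with more rises among all probe sets. Leaving out any 1 array lowered the number of rises among all probe sets too. The 2 falls became 4 with the filter and 5 with the trended robust eBayes, where 19.7% and 9.14% of the probe sets tested fell. They became 1 with median centring and 1 with the 4 arrays alone, where 4.65% and 5.29% fell. With EGF plus gefitinib against EGF, 6 rose and 28 fell with all arrays, where 8.86% and 9.81% of all probe sets did. The 4 arrays alone gave 7 rises and 25 falls, where 7.45% and 8.43% of all probe sets rose and fell. Leaving out 1 EGF or EGF plus gefitinib array lowered the numbers of rises and of falls, among members and among all probe sets. With EGF plus gefitinib against control, the 3 rises became 5 with the filter, 5 with the trended robust eBayes and 1 with the 4 arrays alone. Of the probe sets tested, 14%, 6.4% and 0.676% rose in these limma fits. The 2 falls became 13, 19 and 0 in the same fits, where 15%, 6.55% and 0.476% fell. The 4 arrays alone gave 15 falls at an unadjusted limma p under 0.05, and for this fit all probe sets were not counted at that threshold. With all arrays, 16 of 78 members and 2159 of 21448 probe sets were lower at that threshold. Leaving out any 1 array lowered the numbers of called rises and falls in this comparison, among members and among all probe sets. Same-numbered arrays did not deviate together over all probe sets (correlations -0.0035, 0.021 and -0.041). These values show no large shared array effect. They cannot tell whether same-numbered samples came from 1 culture or day. With the replicate number as a block, EGF against control gave 13 rises and 2 falls, where 5.32% and 4.2% of all probe sets were called. EGF plus gefitinib against EGF gave 6 and 25, where 7.67% and 8.6% were called. EGF plus gefitinib against control gave 1 and 0, where 0.895% and 0.657% were called. At an unadjusted limma p under 0.05 this fit gave 17 falls, and all probe sets were not counted at that threshold. Of 1248 values for named genes, 1054 kept direction and call, 150 lost a call (127 of them without 1 array), 32 gained one and 12 changed sign, none of these called with all arrays. Some alternatives are the same fit for a given comparison, so these values are not all separate checks. Over the fits without 1 array, the changes of sign were in these ranges. With EGF against control, CCT6B ran from -0.82 to 0.12, HSPA12B from -0.45 to 0.0563 and HSPB8 from -0.34 to 0.0885. With EGF plus gefitinib against EGF, HSPA12B ran from -0.0704 to 0.52. Both CCT6B and HSPA12B lay within the negative-control range on every array. With EGF plus gefitinib against control, DNAJB9 ran from -0.27 to 0.21, HSPA4L from -0.0759 to 0.72 and DNAJC4 from -0.0724 to 0.0859, and DNAJC4 was -0.00382 with quantile normalization and -0.00999 with median centring. The filter tests fewer probe sets and some fits use fewer arrays; for the trended robust eBayes, the block and the scalings, which use all of both, the cause was not tested. Within the negative-control range, which held 25 of the 78 genes on all arrays, a difference was not detectable as a fold.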
